A study of Mus musculus with 21 samples.

Results

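Mitochondrial carriers of the Slc25 family were followed through the RNA of endothelial cells from mouse brain, lung and liver. Every row of the bulk RNA table whose symbol is Slc25a followed by a number was taken, which gave 47 members of 24176 rows. The same 47 symbols were found among the 32285 genes of a single-cell library of brain endothelial cells. The rule reads the symbol alone. The bulk data held 3 libraries each of brain, lung and liver endothelial cells from C57BL/6J mice aged 2 to 4 months. The labels give no genotype, sex or treatment and call the libraries biological replicates, without saying how many animals entered each. Cells were sorted live from perfused, enzyme-digested tissue as positive for CD31, the adhesion protein encoded by Pecam1, and negative for PDGFRβ (mural cells) and CD45 (leukocytes); myelin was removed from brain alone. The single-cell library came from brain endothelial cells of the same strain and age.

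Slc25 proteins are nuclear-encoded carriers that, with few exceptions, sit in the inner mitochondrial membrane and exchange nucleotides, phosphate, carboxylates, amino acids, cofactors or metal ions between the cytosol and the matrix. Each is built from repeats of a shared fold, and most work as exchangers that open alternately to either side. Endothelial cells make much of their ATP by glycolysis, and their mitochondria also serve calcium handling, biosynthesis and redox balance; brain endothelium is known for a high mitochondrial content.

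Promoter sequences are shown for Slc25a25 and Slc25a42, the 2 members with a difference between tissues that held in every alternative setting run. The windows run from 250 bases before to 50 bases after each RefSeq transcript start (GRCm38.p6) and read 5′ to 3′ on the gene's strand. Capitals mark a cyclic AMP response element (TGACGTCA) in the first sequence and an ETS-type motif (CCGGAAG) in the third.
Slc25a25 start at chr2:32424017-32424316 (minus strand): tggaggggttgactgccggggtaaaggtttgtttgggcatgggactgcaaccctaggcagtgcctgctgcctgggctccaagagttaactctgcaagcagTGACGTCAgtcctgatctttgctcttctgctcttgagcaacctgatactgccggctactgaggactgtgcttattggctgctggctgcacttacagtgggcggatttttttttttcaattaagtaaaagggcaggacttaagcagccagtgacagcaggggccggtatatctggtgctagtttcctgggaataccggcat
Slc25a25 start at chr2:32431102-32431401 (minus strand): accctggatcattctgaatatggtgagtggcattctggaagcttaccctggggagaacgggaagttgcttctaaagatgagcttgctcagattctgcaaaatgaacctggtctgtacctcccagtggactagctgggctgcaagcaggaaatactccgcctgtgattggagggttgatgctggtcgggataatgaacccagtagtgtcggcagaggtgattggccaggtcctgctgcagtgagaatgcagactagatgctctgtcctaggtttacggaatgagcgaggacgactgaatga
Slc25a25 start at chr2:32451421-32451720 (minus strand): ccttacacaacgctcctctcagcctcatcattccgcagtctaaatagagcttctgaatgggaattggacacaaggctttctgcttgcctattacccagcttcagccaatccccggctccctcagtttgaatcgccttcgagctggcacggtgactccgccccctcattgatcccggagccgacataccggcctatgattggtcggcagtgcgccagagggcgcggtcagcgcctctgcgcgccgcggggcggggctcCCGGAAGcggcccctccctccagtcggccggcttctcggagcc
Slc25a42 start at chr8:70212232-70212531 (minus strand): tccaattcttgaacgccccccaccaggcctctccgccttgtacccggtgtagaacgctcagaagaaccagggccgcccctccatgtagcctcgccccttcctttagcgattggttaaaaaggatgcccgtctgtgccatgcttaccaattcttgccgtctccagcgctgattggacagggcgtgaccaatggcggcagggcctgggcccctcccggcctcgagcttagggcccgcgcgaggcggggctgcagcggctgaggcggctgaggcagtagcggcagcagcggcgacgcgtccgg

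Slc25a25 has 3 annotated starts on chromosome 2, and the cyclic AMP response element begins at position −150 relative to the first of them. The motifs TGACGTCA, CACGTG (an E-box) and CCGGAAG were searched on both strands and counted separately, also where matches of different motifs overlap. TGACGTCA lay in 1.79% of 32851 mouse promoters of this length and in 2 of 46 promoters (4.35%) of the 36 members found in the table, those of Slc25a25 and Slc25a36. CACGTG lay in 7.15% of all promoters and in 8 of the 46 (17.4%). CCGGAAG lay in 8.86% of all promoters and in 7 of the 46 (15.2%), and those shares describe letters, not binding. None of the 3 motifs was found in the windows of Slc25a42, Slc25a24 or Slc25a47.

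Library totals ranged from 2992101 counts (lung library 2) to 25690571 counts (liver library 2), of which 12.2% to 28.8% fell on Rn45s, a ribosomal RNA precursor. Liver library 2 held counts of 31 members and lung library 2 of 34, against 38 to 40 in the other libraries. Summed endothelial markers lay between 4202 and 11766 CPM (counts of a gene scaled to the library's total) in every library, with none of the 8 markers at 0. Among the markers of other cells, the 10 hepatocyte genes summed to 435 to 1032 CPM in liver and 1.34 to 9.46 CPM in lung. In brain they summed to 49.0, 966 and 325 CPM, of which Ttr gave 46.1, 961 and 325 CPM, while 7 of the 10 were at 0 in all 3 brain libraries. Ttr is also a choroid plexus marker, and the 6 choroid plexus genes summed to 189, 1694 and 557 CPM in brain against 31.9 to 76.7 CPM elsewhere, so brain library 2 stood apart. Lung epithelial genes summed to 375 to 1837 CPM in lung against 26.5 CPM or less elsewhere. Scgb1a1 alone gave 286, 1772 and 590 CPM of the lung sums. Sftpc, Sftpb and Sftpa1 were at 2.30 to 7.51 CPM in lung, and Epcam and Foxj1 had their highest values in liver and brain. Leukocyte genes summed to 107 to 162 CPM in lung against 19.0 CPM or less elsewhere. Of the 8 leukocyte genes 4 were at 0 in brain and 4 in liver, and none in lung. In bulk RNA, fewer cells expressing a gene and less of its RNA per cell cannot be told apart.

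Few carriers were called different between the 3 endothelia. The median standard error of the log2 fold change was 0.87 to 0.93 for tested members and 0.81 for all tested genes, so members were measured less precisely. The summed level of the 47 members was 1315 ± 312 CPM in brain, 1077 ± 51.0 CPM in lung and 1390 ± 107 CPM in liver (SD, n = 3 each). Of the members 39 passed the filter on low counts and were tested. All 13216 tested genes entered edgeR's quasi-likelihood test; a call needed a p under 0.05 after Benjamini-Hochberg adjustment over them and a change of 1 or more, up or down, on the log2 scale. Between brain and lung 3 of the 39 members were called (7.69%), 1 higher and 2 lower in brain, where 12.3% of all tested genes were called. Between brain and liver 1 of 39 was called (2.56%) against 16.2% of all genes, and it was higher in brain. Between lung and liver 4 of 39 were called (10.3%) against 15.1% of all genes, 2 in each direction. The share of members called was thus below the background in each comparison, although no test compared the family with other genes. With no overlap between the libraries of the tissues as the criterion, the shares were 9 of 39 members (23.1%) against 33.8% of genes for brain and lung, 6 of 39 (15.4%) against 33.2% for brain and liver, and 14 of 39 (35.9%) against 34.5% for lung and liver. The median log2 fold change of the tested members was 0.12 for brain over lung, 0.13 for brain over liver and −0.43 for lung over liver, where the medians of all tested genes lay between 0 and 0.01. At an unadjusted p under 0.05 the shares were 7 of 39 members (17.9%) against 26.1% of genes, 3 of 39 (7.69%) against 28.6% and 9 of 39 (23.1%) against 28.5%, in the same order. With lung library 2 and liver library 2 both left out, the member calls were 3, 1 and 1 in these 3 comparisons. The shares of all genes called in that setting are not given here.

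**Figure D1:**
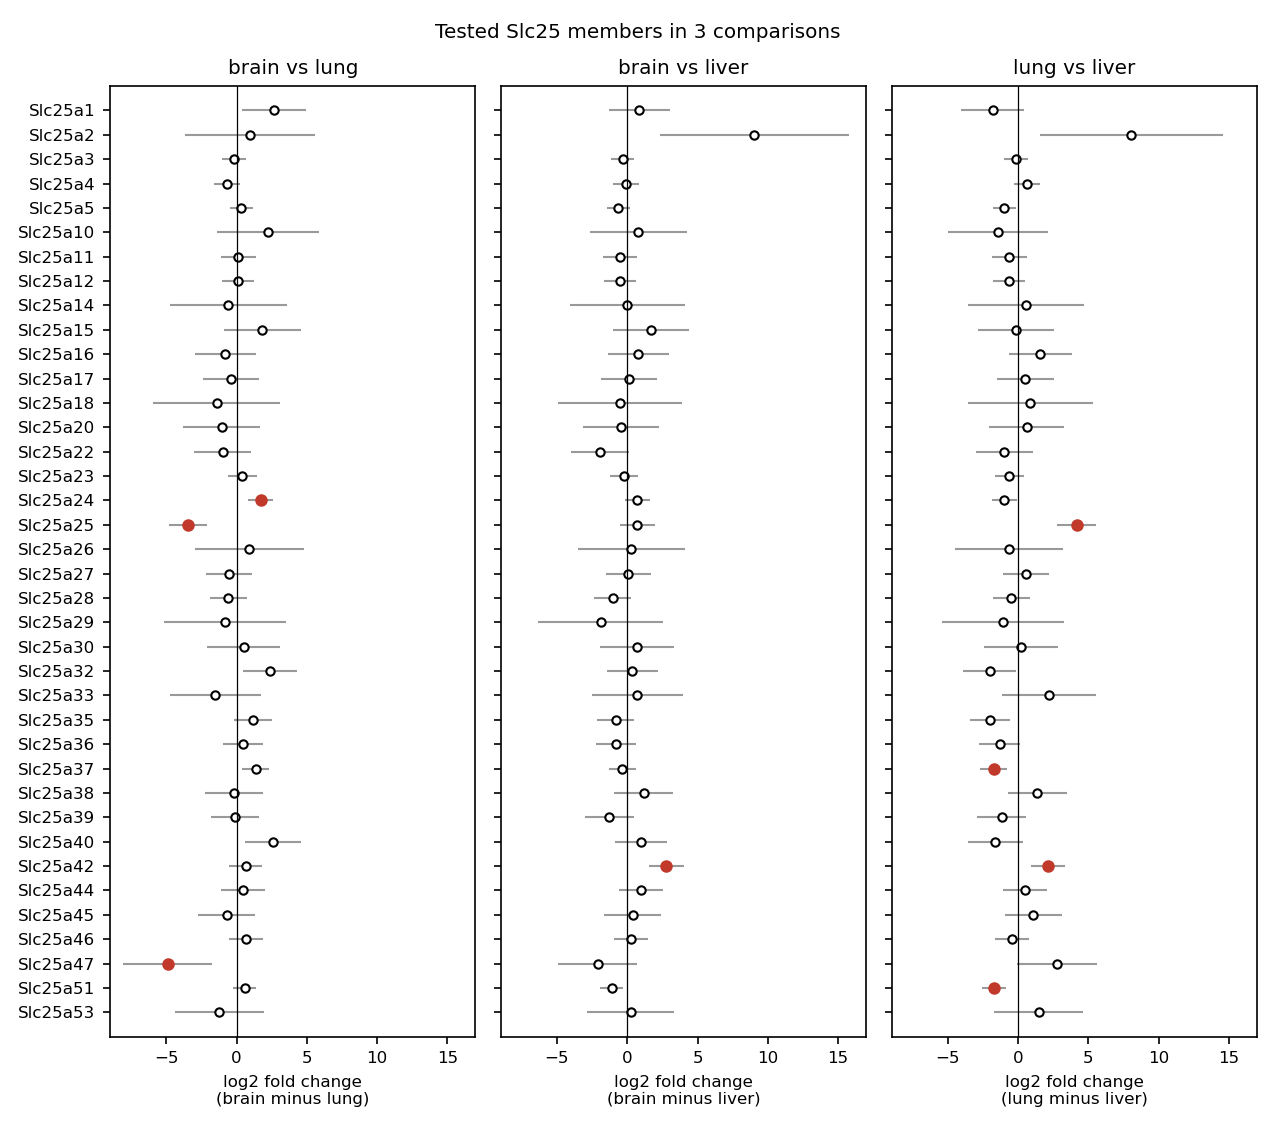
Log2 fold changes of 38 of the 39 tested members in brain against lung, brain against liver and lung against liver (first tissue minus second); each point is the edgeR estimate from 3 libraries a tissue, bars are 95% intervals from the fit's t distribution, and filled red points are the 3, 1 and 4 called members. Most open points have bars that cross 0; the widest bars belong to Slc25a2, which has 0 counts in liver.

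The 11 carriers of adenine and other nucleotides and of phosphate held 2 of the called members, and these differed in opposite directions between brain and lung. Slc25a24 and Slc25a25 are both calcium-regulated carriers that exchange ATP-magnesium for phosphate and so set the adenine nucleotide pool of the matrix; Slc25a23 is their close relative. Slc25a24 was at 97.1, 88.6 and 63.5 CPM in brain, 35.3, 16.0 and 26.6 CPM in lung and 56.5, 34.1 and 42.9 CPM in liver. Every brain library lay above every lung and liver library, while lung and liver overlapped. It was higher in brain than in lung by a log2 fold change of 1.72 (SE 0.42, adjusted p = 0.0152, edgeR, n = 3 each), a call that was lost without brain library 1 or without lung library 3, where the estimate still lay at 1.49 or above. Against liver the difference was 0.72 (adjusted p = 0.274) with a 95% interval of −0.16 to 1.60.

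Slc25a25 was highest in lung. Its levels were 3.08, 11.7 and 15.8 CPM in brain, 122, 128 and 105 CPM in lung and 8.60, 2.96 and 5.69 CPM in liver. Lung stood apart from both other tissues, whose libraries overlapped. Slc25a25 was lower in brain than in lung by a log2 fold change of −3.46 (SE 0.62, adjusted p = 0.00223) and higher in lung than in liver by 4.18 (SE 0.65, adjusted p = 0.000595). Both calls held in all 18 alternative settings run, with log2 fold changes from −3.97 to −3.02 and from 3.82 to 4.52. Brain and liver differed by 0.72 with an interval of −0.51 to 1.95 (adjusted p = 0.464).

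Immediate-early genes, which respond within minutes to stress, growth factors and tissue handling, moved with Slc25a25 between lung and the other tissues. Fos, Junb, Egr1, Atf3 and Jun summed to 7792 to 9865 CPM in lung, 1133 to 1907 CPM in brain and 208 to 474 CPM in liver. Of the 5 genes, 4 were called lower in brain than in lung, 5 higher in lung than in liver and 5 higher in brain than in liver. Slc25a25 itself was not called between brain and liver. The part of this in the Slc25a25 result was not tested, nor was that of the lung epithelial and leukocyte genes above. Slc25a25 overlaps Naif1 in the RefSeq annotation, and strand use in the counting is not given in the sources used here. Naif1 was at 5.34 to 19.4 CPM in lung, below the Slc25a25 level in each lung library.

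**Figure D2:**
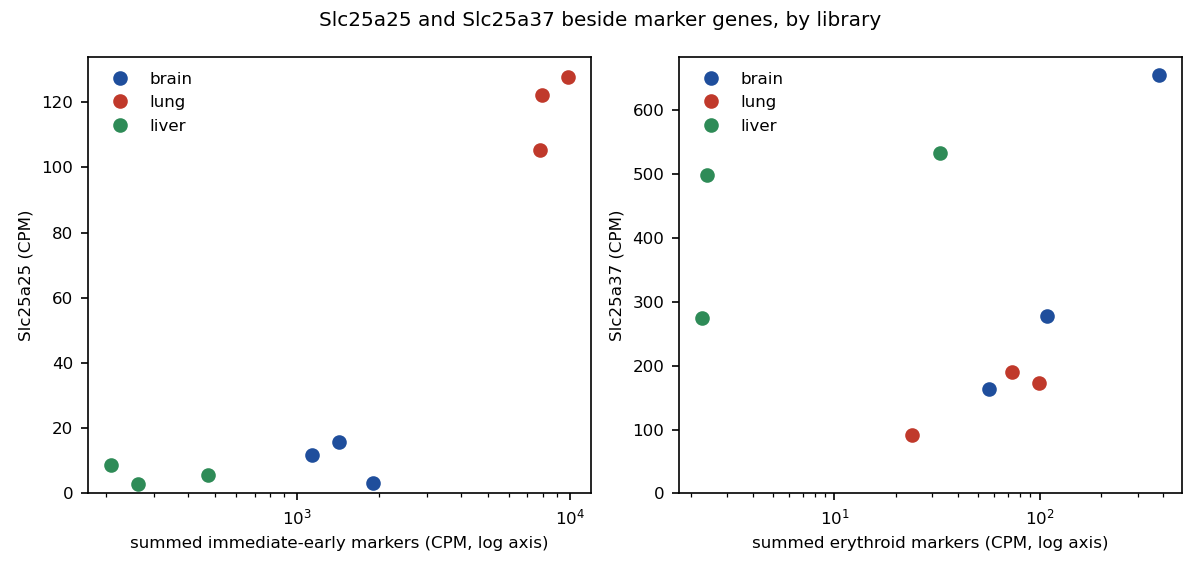
Left, Slc25a25 (CPM) against the summed level of 5 immediate-early genes (CPM, log axis); right, Slc25a37 (CPM) against the summed level of 9 erythroid markers (CPM, log axis); each point is 1 library, coloured by tissue. The 3 lung libraries are highest on both axes at left; at right, the liver libraries have erythroid sums of 2.26 to 32.7 CPM and Slc25a37 levels of 275 to 533 CPM.

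Slc25a23 was among the most abundant members by CPM and did not separate the tissues: 66.9, 113 and 97.5 CPM in brain, 62.2, 112 and 41.7 CPM in lung, and 58.9, 126 and 87.3 CPM in liver. The phosphate carrier Slc25a3, which brings in phosphate for ATP synthesis, was at 62.7, 65.6 and 149 CPM in brain, 118, 90.2 and 122 CPM in lung and 121, 76.4 and 119 CPM in liver. Its libraries overlapped in every pair of tissues. The ADP/ATP exchangers Slc25a4 and Slc25a5 were not called in any comparison either. Slc25a4 ranged from 24.9 CPM in brain library 3 to 99.6 CPM in lung library 2. Slc25a5 was at 50.7, 30.1 and 39.6 CPM in lung against 69.8, 58.5 and 71.3 CPM in liver, groups that did not overlap, with a log2 fold change of −0.97 (SE 0.38, adjusted p = 0.11, edgeR). How reads were divided between these genes and near-identical copies elsewhere in the genome is not given, so their levels are uncertain. Slc25a33 and Slc25a36, carriers of pyrimidine nucleotides, ranged from 0 to 10.7 CPM and from 6.35 to 41.9 CPM over the 9 libraries. Slc25a31, Slc25a41 and Slc25a54 had no counts.

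Among 9 carriers of cofactors, Slc25a42 and Slc25a51 were called. Slc25a42 brings coenzyme A into the matrix in exchange for adenine nucleotides. It was at 68.8, 23.4 and 62.8 CPM in brain, 28.6, 39.4 and 34.7 CPM in lung and 5.36, 4.01 and 11.1 CPM in liver. Liver lay below every brain and lung library, and brain and lung overlapped. Slc25a42 was higher in brain than in liver by a log2 fold change of 2.78 (SE 0.58, adjusted p = 0.00455, edgeR), and this call held in all 18 alternatives (2.56 to 3.22). Lung exceeded liver by 2.14 (SE 0.57, adjusted p = 0.0222), but this call was lost in 5 of 18 alternatives: without lung library 2 or 3, without liver library 1 or 2, and without lung 2 and liver 2 together, with adjusted p up to 0.124. Brain and lung differed by 0.65 with an interval of −0.53 to 1.83.

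Slc25a51, the carrier that supplies the matrix with NAD, was at 90.5, 146 and 114 CPM in brain, 94.9, 55.5 and 90.7 CPM in lung and 172, 297 and 165 CPM in liver. All 3 liver libraries were above all others. It was lower in lung than in liver by a log2 fold change of −1.70 (SE 0.39, adjusted p = 0.00941). The lung and liver call was lost only when lung library 2 and liver library 2 were both left out (−1.02, adjusted p = 0.0766). Brain against liver gave −1.10 (SE 0.38, adjusted p = 0.0662), which misses the threshold.

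The other 7 cofactor carriers were not called. Slc25a40 and Slc25a39 are relatives linked to the import of glutathione, the main thiol antioxidant. Slc25a40 was at 47.7, 9.25 and 15.9 CPM in brain and 2.56, 3.68 and 6.06 CPM in lung, with no overlap and a log2 fold change of 2.59 (SE 0.93, adjusted p = 0.0857, edgeR). The folate carrier Slc25a32 was at 32.3, 10.9 and 16.1 CPM in brain and 6.90, 4.01 and 0.578 CPM in lung, a log2 fold change of 2.39 (SE 0.89, adjusted p = 0.0996). Both sit just outside the threshold, and DESeq2 called both. Slc25a39 ranged from 6.24 to 55.7 CPM and Slc25a16 from 0.389 to 73.9 CPM. Slc25a17, a peroxisomal member, ranged from 1.75 to 10.6 CPM, and Slc25a26, the S-adenosylmethionine carrier, from 0 to 11.0 CPM.

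The iron importers of the inner membrane are Slc25a37 (mitoferrin 1), best known from developing red cells, and Slc25a28 (mitoferrin 2), known from other tissues. Slc25a37 was at 164, 278 and 655 CPM in brain, 190, 91.9 and 172 CPM in lung and 533, 275 and 499 CPM in liver. The lung libraries were below all liver libraries, and brain spanned both ranges, with library 3 the highest of the 9. Slc25a37 was lower in lung than in liver by a log2 fold change of −1.73 (SE 0.45, adjusted p = 0.0201, edgeR). This call was lost in 4 of 18 alternatives: without lung library 2 or 3, without liver library 1, and without lung 2 and liver 2 together (adjusted p up to 0.0963). Brain against lung gave 1.37 (SE 0.45, adjusted p = 0.0629). Slc25a37 overlaps Gm27222, Gm31896 and Gm31748 in the RefSeq annotation. Slc25a28 ranged from 19.5 to 83.3 CPM and was not called.

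Erythroid markers were measured beside Slc25a37. Of the 9 markers, which include hemoglobins that are near-identical copies, the sum was 56.3, 108 and 382 CPM in brain, 73.7, 23.7 and 99.2 CPM in lung and 32.7, 2.26 and 2.40 CPM in liver. Alas2 alone gave 25.5, 71.2 and 221 CPM in brain, 41.2, 4.01 and 62.7 CPM in lung and 9.41, 0.740 and 1.37 CPM in liver. Brain library 3 was highest in both the erythroid sum and Slc25a37, and lung library 2 was the lowest of the lung libraries in both. Liver libraries 2 and 3 had the lowest erythroid sums, while liver library 1 lay above lung library 2. In liver, where Slc25a37 was higher than in lung, 3 of the 9 markers were at 0 in all libraries, and 2 of these, Hbb-bt and Hbb-b2, were at 0 in brain and lung as well. Within the brain libraries the part of erythroid RNA in the Slc25a37 level was not tested.

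**Figure D3:**
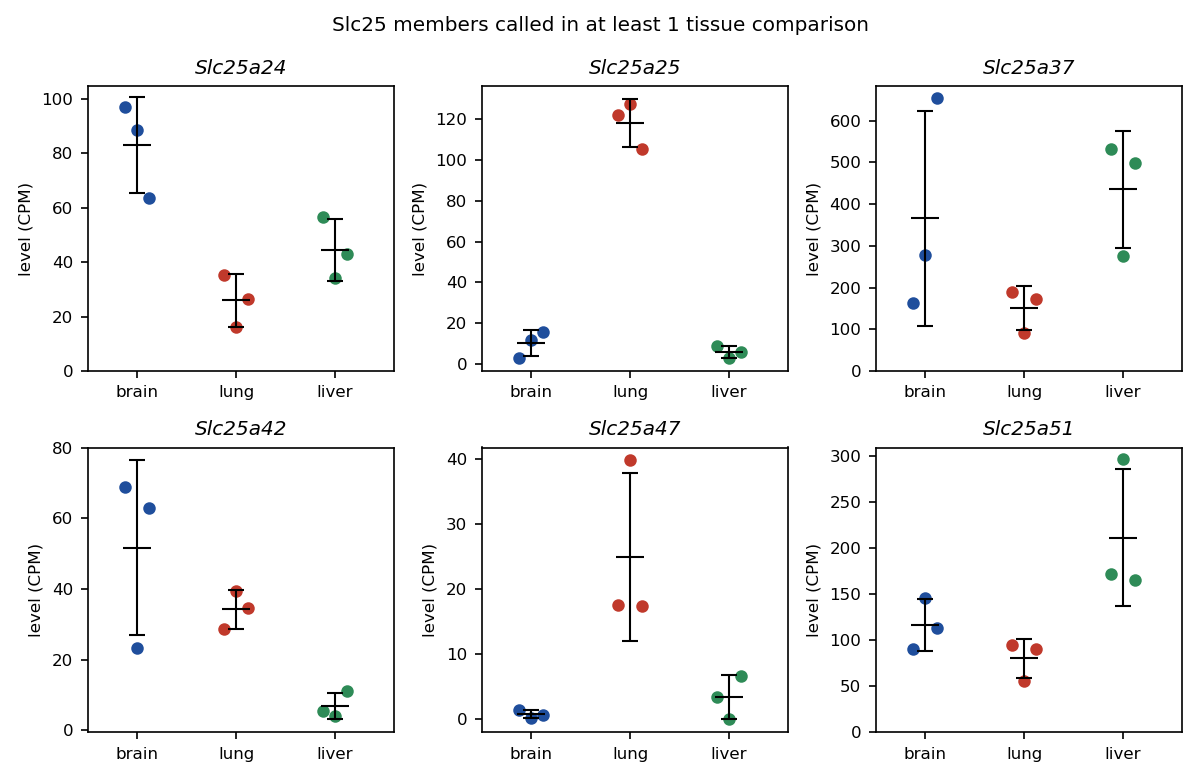
Levels (CPM) of the 6 members called in at least 1 comparison; points are the 3 libraries of each tissue, the horizontal mark is their mean and the bar 1 SD. Slc25a25 is at 105 to 128 CPM in lung and at most 15.8 CPM elsewhere, Slc25a42 is at most 11.1 CPM in liver, and the brain libraries of Slc25a37 spread from 164 to 655 CPM.

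None of the 9 amino acid carriers was called by edgeR; Slc25a2 alone had an unadjusted p under 0.05 and was called by DESeq2. Slc25a12 and Slc25a13 exchange aspartate for glutamate in the malate-aspartate shuttle, which moves reducing equivalents into mitochondria. Slc25a12 ranged from 16.7 to 53.9 CPM, whereas Slc25a13, the form known from liver parenchyma, did not exceed 1.24 CPM in any library and was not tested. Of the glutamate carriers, Slc25a22 ranged from 1.51 to 20.7 CPM and Slc25a18 from 0 to 2.17 CPM. Slc25a44, a carrier of branched-chain amino acids, ranged from 4.32 to 45.3 CPM, and Slc25a38, which brings in glycine for heme synthesis, from 0.389 to 13.8 CPM. Slc25a29, a carrier of basic amino acids, ranged from 0 to 5.36 CPM.

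The ornithine carriers Slc25a15 and Slc25a2 serve the urea cycle in hepatocytes. Slc25a15 ranged from 0 to 30.2 CPM, and its highest value was in brain library 3. Slc25a2 was at 12.2 CPM in brain library 3 and at 0 in both other brain libraries, at 1.59, 0.668 and 4.62 CPM in lung and at 0 in all liver libraries. Taken over the libraries of a tissue, lung was at least 55.2-fold higher than liver for Slc25a2. That bound rests on 52 lung counts, with liver set to a floor of 3 counts over its libraries. Slc25a2 overlaps Gm37013, Gm38666 and Gm38667 in the RefSeq annotation, and strand use in the counting is not given. The adjusted p was 0.0939 for lung against liver and 0.0679 for brain against liver, where a single brain library gave all counts. Slc25a21, a carrier of 2-oxodicarboxylates, was at 12.8 CPM in brain library 3 and at 0.126 CPM or less in each of the other 8 libraries, and it was not tested. It overlaps Pax9 and Gm30001 in the annotation.

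The 5 carboxylate and fatty acyl carriers held no member called by edgeR, and Slc25a1 was the 1 member with an unadjusted p under 0.05 and the 1 called by DESeq2. Slc25a1, which exports citrate for fatty acid synthesis, was at 9.81, 13.4 and 9.54 CPM in brain, 2.56, 0.334 and 2.31 CPM in lung and 1.68, 7.79 and 5.56 CPM in liver. Brain lay above both other tissues without overlap. The log2 fold change over lung was 2.67 (SE 1.07, adjusted p = 0.125, edgeR), and DESeq2 called this difference. Slc25a11, the oxoglutarate-malate carrier of the malate-aspartate shuttle, had one of the narrowest spreads, from 11.1 to 24.2 CPM. Slc25a20, the carnitine-acylcarnitine carrier of fatty acid oxidation, ranged from 0.0779 to 11.0 CPM and the dicarboxylate carrier Slc25a10 from 0 to 12.4 CPM.

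The relatives of the uncoupling proteins were Slc25a27 (3.67 to 24.1 CPM), Slc25a30 (0.642 to 21.5 CPM) and Slc25a14 (0 to 3.90 CPM). None was called by edgeR or DESeq2, and 0 had an unadjusted p under 0.05. Among 8 members whose substrate is unsettled or which serve another role, Slc25a47 was called. It is known as a liver-enriched carrier, and its highest levels here were in lung: 17.6, 39.8 and 17.5 CPM, against 1.51, 0.223 and 0.734 CPM in brain and 3.46, 0 and 6.72 CPM in liver. The lung libraries lay above all others, but lung against liver was not called (log2 fold change 2.78, SE 1.33, adjusted p = 0.188, edgeR). Slc25a47 was lower in brain than in lung by a log2 fold change of −4.89 (SE 1.47, adjusted p = 0.0436, edgeR). That call is the least stable of the family, since it was lost when any single brain or lung library was left out (adjusted p up to 0.153). Hepatocyte markers summed to at most 9.46 CPM in lung, with 5 of 10 at 0 there. The sums of lung epithelial genes, mostly Scgb1a1, and of leukocyte genes were high in the same lung libraries, and their part in the result was not tested.

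Slc25a35 was at 14.0, 13.7 and 4.77 CPM in lung and 39.7, 43.8 and 23.2 CPM in liver, without overlap, at a log2 fold change of −1.99 (SE 0.65, adjusted p = 0.0533, edgeR), just outside the threshold; DESeq2 called this difference. It overlaps Rangrf in the annotation. Slc25a46, an outer-membrane member linked to fission and lipid exchange, ranged from 12.3 to 110 CPM, Slc25a45 from 0.428 to 28.9 CPM and Slc25a53 from 0.0779 to 3.27 CPM. Slc25a34 reached 1.59 CPM. Slc25a43 and Slc25a48, like the 3 nucleotide carriers named above, had no counts in 144408984 counts over the 9 libraries, which allows up to 0.0208 CPM for counting error only.

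Other genes of mitochondrial transport, import and the pathways that the carriers feed were counted beside the family. Of 89 listed genes 84 were tested. Between brain and lung 1 was higher and 2 lower in brain (background 5.05% higher and 7.25% lower), between brain and liver 3 higher and 10 lower (background 7.45% and 8.72%), and between lung and liver 1 higher and 4 lower in lung (background 8.04% and 7.02%). Their median log2 fold changes were 0.02, −0.24 and −0.42. Of these 21 calls 8 held in all 18 alternatives, namely those of Micu2, Alas1 and Cps1 in 2 comparisons each, of Mcu, and of Mtch1 between brain and liver. The other 13 were each lost when some single library was left out.

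The mitochondrial calcium uniporter and its regulators held several of these calls. Micu2, a gatekeeper of the uniporter, was at 74.6, 49.1 and 40.2 CPM in brain, 10.7, 9.69 and 9.39 CPM in lung and 48.7, 65.1 and 23.5 CPM in liver. It was higher in brain than in lung by 2.50 (SE 0.54, adjusted p = 0.00738) and lower in lung than in liver by −2.51 (SE 0.54, adjusted p = 0.00656) on the log2 scale. The pore gene Mcu and its essential subunit Smdt1 were lower in brain than in liver by −3.29 (SE 0.70, adjusted p = 0.00494) and −2.01 (SE 0.60, adjusted p = 0.0352). Sfxn1, a serine carrier, was lower than in liver by −2.54 in brain and −2.86 in lung, and the outer-membrane channel Vdac2 by −1.45 in brain.

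Mtch1, a divergent relative of the Slc25 fold in the outer membrane, had 16.7, 17.6 and 21.0 CPM in brain, 33.6, 86.6 and 48.4 CPM in lung and 112, 121 and 113 CPM in liver. Brain was below lung by −1.56 (SE 0.43, adjusted p = 0.0286, edgeR) and below liver by −2.84 (SE 0.45, adjusted p = 0.000524). Ucp2, the uncoupling-protein relative found in many cell types, was at 172, 324 and 326 CPM in brain, 650, 698 and 542 CPM in lung and 309, 351 and 163 CPM in liver. Lung was above both without overlap, at −1.14 for brain over lung (adjusted p = 0.0572) and 0.92 for lung over liver (adjusted p = 0.112), neither called.

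In the heme pathway, Alas1, the rate-limiting enzyme outside red cells, was at 122, 164 and 106 CPM in brain, 82.8, 112 and 76.8 CPM in lung and 12.2, 9.23 and 10.3 CPM in liver. It was higher than in liver by 3.44 in brain (SE 0.38, adjusted p = 2.8e-05) and by 2.87 in lung (SE 0.37, adjusted p = 0.000148). Alas2, its erythroid form, was higher in brain than in liver by 4.74 (SE 1.24, adjusted p = 0.022); it is also 1 of the erythroid markers above. Of 6 tested genes of the ornithine and urea cycle, Arg1, Otc and Cps1 were lower in brain than in liver, and Arg1 and Cps1 lower in lung than in liver. These are abundant hepatocyte genes, Cps1 is itself 1 of the 10 hepatocyte markers, and the hepatocyte markers were high in the same liver libraries; their part in these calls was not tested. Got1 (−3.21), a malate-aspartate shuttle enzyme, and the import receptor Tomm22 (−1.66) were lower in brain than in liver, and Cpt1a, which starts the carnitine shuttle, was higher in brain (1.08, adjusted p = 0.0257). None of 13 genes of mitochondrial content and biogenesis was called in any comparison by edgeR; 2, the coactivators Ppargc1a and Ppargc1b, had an unadjusted p under 0.05 and were called by DESeq2. Of 7 genes of citrate use and fatty acid synthesis edgeR called 0, and 1 (Idh2) had an unadjusted p under 0.05 and was called by DESeq2.

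The single-cell library ranked the family without the effect of transcript length on read counts. It held 45602016 unique molecular identifiers (UMIs) in 9405 barcodes, each barcode found once, with a median of 4393 UMIs; with 1 library there is no replicate, and intervals cover counting error only. The 47 members summed to 59775 UMIs, or 13.1 per 10000 UMIs. Slc25a3 led with 2.40 UMIs per 10000 (95% exact Poisson interval 2.35 to 2.44), then Slc25a5 with 1.76 (1.73 to 1.80) and Slc25a4 with 1.46 (1.43 to 1.50). Oxidative phosphorylation depends directly on these carriers of phosphate, ADP and ATP. Slc25a51 (0.535) and Slc25a24 (0.523) followed with overlapping intervals. The first 4 members took 47.0% of the family's UMIs, 11 members were seen in under 1% of barcodes, and Slc25a41, Slc25a48 and Slc25a54 had no UMI, which allows up to 0.000658 per 10000. Slc25a47, which had few counts in bulk brain, had 38 UMIs, and Slc25a21, whose bulk counts came almost wholly from brain library 3, had 1.

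**Figure D4:**
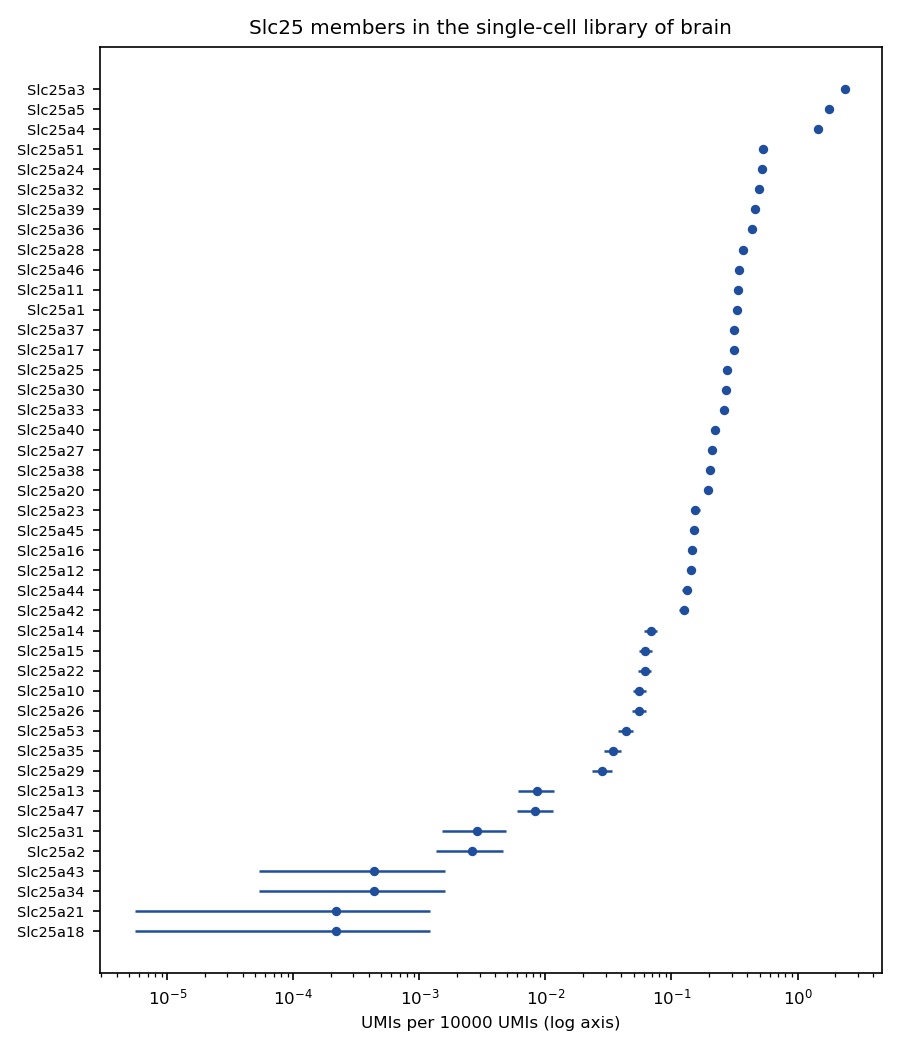
Level of 43 of the 44 members with at least 1 UMI in the single-cell library of brain (UMIs per 10000 UMIs, log axis); bars are 95% exact Poisson intervals for counting error. Slc25a3, Slc25a5 and Slc25a4 stand at 1.46 to 2.40, most members lie between 0.1 and 0.6, and the lowest 2 members have 1 UMI each.

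Barcodes were clustered without any Slc25 gene, which gave 11 clusters. Arterial-like, capillary-like, venous-like and fenestrated-like endothelial clusters were named from markers, along with 260 erythroid-like and 52 mural-like barcodes and a cluster high in immediate-early genes; 3 clusters were left unnamed. No doublet caller was run. The summed family level was 11.6 to 17.4 per 10000 UMIs in the other clusters and 6.07 in the erythroid-like cluster, whose erythroid markers took 8495 of every 10000 UMIs.

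Slc25a37 had its highest level in the erythroid-like barcodes. It stood at 2.58 UMIs per 10000 there (2.37 to 2.79), against 0.0320 to 0.427 in the other clusters, and this cluster held 41.6% of its 1422 UMIs. The 0.427 was in fenestrated-like barcodes, whose erythroid markers summed to 110 per 10000 UMIs. In the remaining clusters, the erythroid-like one aside, these markers summed to 2.50 to 10.3. Their part in the fenestrated-like value was not tested. A Slc25a37 UMI was found in 66.2% of erythroid-like barcodes, at a median depth of 7822 UMIs, and in 9.45% of all barcodes. Without the erythroid-like cluster its pooled level was 0.192 instead of 0.312. Apart from the 1 UMI of Slc25a21, Slc25a39 was the other member with its highest level in the erythroid-like cluster, 1.72 (1.55 to 1.90) against 0.329 to 0.815 elsewhere. Slc25a28 had 0.0349 there, from 8 UMIs, and Slc25a38, which feeds heme synthesis, 0.0305 from 7 UMIs. Because erythroid markers took 8495 of every 10000 UMIs in this cluster, the levels of all its other genes are lowered. These 2 values therefore do not show that the carriers are scarce there.

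Among the remaining clusters the ADP/ATP exchangers differed in level. Slc25a4 was at 4.15 UMIs per 10000 (3.46 to 4.93) in mural-like and 2.73 (2.40 to 3.08) in fenestrated-like barcodes, against 1.14 (1.06 to 1.22) in capillary-like ones. Slc25a5 was at 2.47 (2.37 to 2.58) in the immediate-early-high cluster against 1.42 (1.34 to 1.51) in capillary-like barcodes. Slc25a42 was highest in the unnamed cluster 4, at 0.241 (0.175 to 0.324), and in capillary-like barcodes, at 0.210 (0.177 to 0.246), with overlapping intervals. It was at 0.130 (0.105 to 0.160) in arterial-like cluster 0, 0.0706 (0.0425 to 0.110) in arterial-like cluster 1 and 0.0107 in fenestrated-like barcodes, where it had 1 UMI. Cluster 4 had a median of 1381 UMIs, against 4410 over all clustered barcodes, and mitochondrially encoded genes among its leading genes. Slc25a24 was at 0.780 (0.720 to 0.843) in the unnamed cluster 6, 0.669 and 0.691 in arterial-like clusters 0 and 1, and 0.419 (0.373 to 0.470) in capillary-like barcodes.

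Slc25a25 was compared with immediate-early genes across the same clusters. The immediate-early markers summed to 133 UMIs per 10000 in the immediate-early-high cluster and 11.1 in the capillary-like cluster. Slc25a25 was at 0.271 (0.238 to 0.308) in the former and 0.278 (0.240 to 0.319) in the latter. These intervals overlap. Its highest levels were in arterial-like cluster 1, at 0.472 (0.393 to 0.561), and in the unnamed cluster 6, at 0.343 (0.304 to 0.386), where immediate-early markers summed to 43.9 and 67.7. Fenestrated-like barcodes, with a sum of 70.2, had Slc25a25 at 0.224 (0.139 to 0.343). Slc25a25 was at 0.257 in mural-like barcodes (sum 31.9), 0.251 in venous-like ones (sum 21.2) and 0.160 in the unnamed cluster 7 (sum 11.4). Clusters with low immediate-early sums had Slc25a25 at 0.275 (arterial-like cluster 0, sum 9.58) and 0.198 (unnamed cluster 4, sum 8.55). The erythroid-like cluster had Slc25a25 at 0.0174 and a sum of 6.46. Erythroid markers took 8495 of every 10000 UMIs there, which lowers both values, so they cannot be set beside those of the other clusters.

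**Figure D5:**
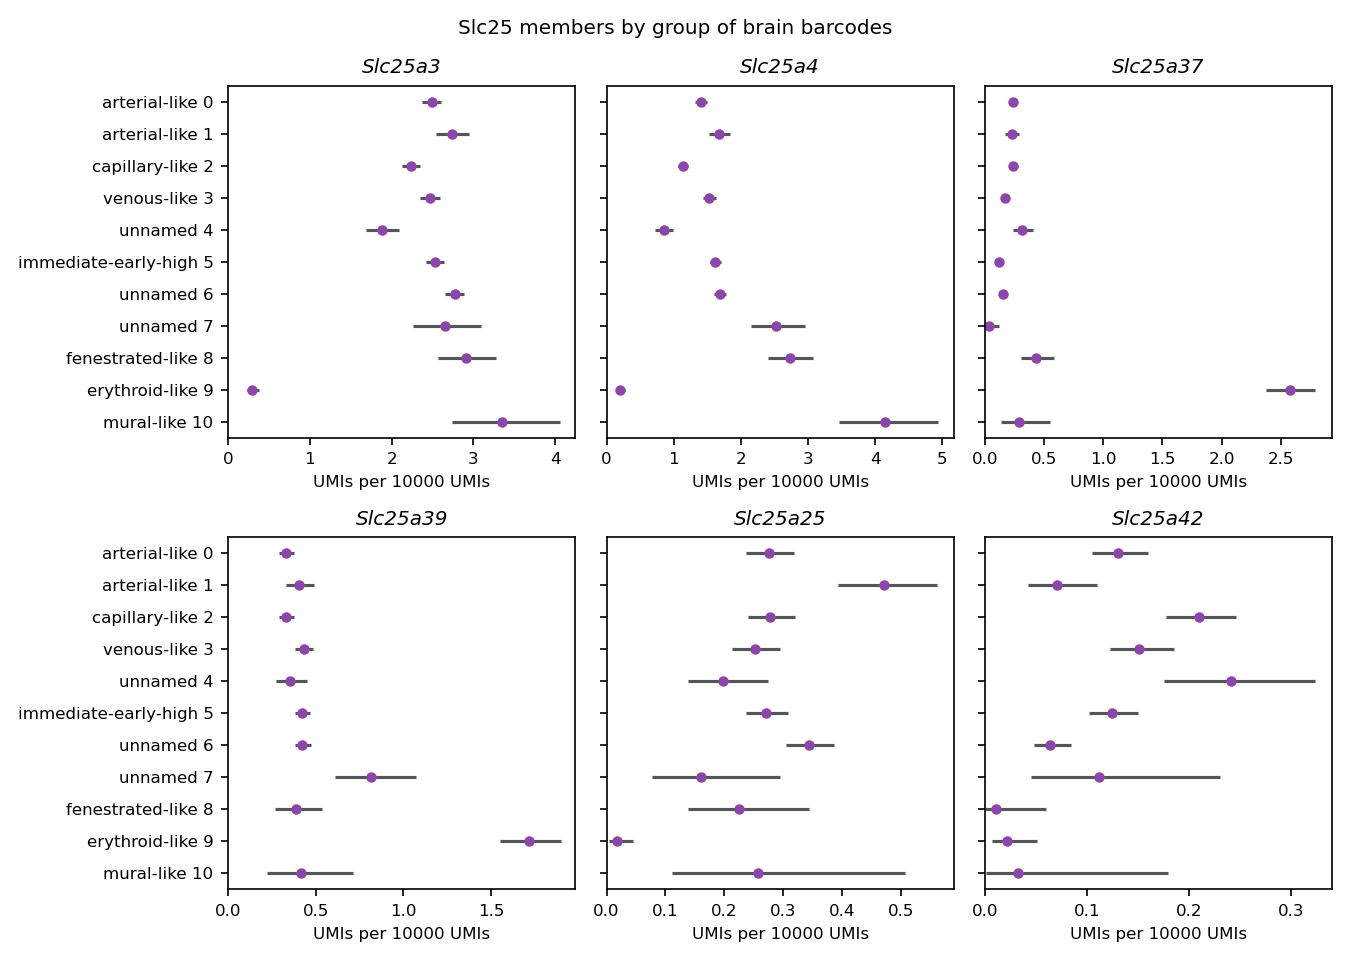
Levels (UMIs per 10000 UMIs) of Slc25a3, Slc25a4, Slc25a37, Slc25a39, Slc25a25 and Slc25a42 in 11 clusters of brain barcodes; points are pooled levels and bars 95% exact Poisson intervals for counting error in 1 library. Slc25a37 and Slc25a39 peak in the erythroid-like cluster at 2.58 and 1.72 and Slc25a4 in the mural-like cluster at 4.15. Slc25a3 is lowest in the erythroid-like cluster, where erythroid markers took 8495 of every 10000 UMIs and so lower the levels of other genes.

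Bulk and single-cell counts ordered the members differently in brain. Slc25a37 held 15.5% to 39.4% of the family's counts in the brain libraries and 8.68% to 37.8% in the others, and ranked 1 in mean brain CPM but 13 in UMIs. Slc25a23 ranked 3 in bulk and 22 in UMIs, and Slc25a42 ranked 7 and 27. Slc25a1 and Slc25a17 ranked higher in UMIs (12 and 14) than in bulk (23 and 29). Bulk CPM is not scaled to transcript length and the libraries come from different assays, so these ranks describe the tables and are no test.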

How the data were processed

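Per the file headers, the bulk table holds unnormalised read counts that the authors deposited for each gene; UMI counts of 1 brain library were deposited as a matrix of genes by barcodes. The submitters' processing notes name HTSeq 0.6.1, Cell Ranger 1.2.0, TopHat, Bowtie2 and SAMtools 1.10.2 among other tools, without tying a tool or build to an assay. Chromatin accessibility tables were not used here. Counts were tested with edgeR 4.0.16 (R 4.3.3; filterByExpr, TMM, robust quasi-likelihood fit over all 9 libraries, biological coefficient of variation 0.766), and levels are CPM of all counts, Rn45s included. The test was also run on counts simulated from edgeR's own fitted spread. Such a run cannot show how the test handles single outlying libraries. DESeq2 1.42.0, other scalings and filters, and leaving out libraries were alternatives. Standard errors are the log2 fold change over the root of the F statistic, and 95% intervals use the t quantile at the fit's degrees of freedom. Members called, the 4 members with the highest mean CPM in each tissue, up to 4 called genes per list and Ucp2 were to be named in full; all other members are given by range, near misses with values, and the Slc25a2, Slc25a21 and single-cell examples were chosen after their values were seen. The members and lists were chosen with earlier results of these data known. P-values measure the spread between libraries, which may be technical in part. Of the 9405 barcodes, 58 with over 20% mitochondrially encoded UMIs were not clustered; Leiden clusters (resolution 0.6) used 2000 variable genes, no Slc25 gene among them. Filters on cells before deposit are not given in the sources used here. Mcub, 1 of the 89 listed genes, had no row in the bulk table. Values of 1 member and of some other genes are not reported here.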

Additional observations from a re-analysis of the deposited data

How the results depend on the processing

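Each of the 8 called member differences kept its direction in all 18 alternatives, and 125 of 144 values kept their side of the threshold. Among the 18, the setting without a minimum fold reused the main fit, so no call could be lost under it. The number of members called between brain and lung (3) was 6 with DESeq2 and ranged from 1 to 4 when 1 library was left out. Between brain and liver (1) it was 2 with DESeq2 and 2 without the low-count filter, and 1 to 2 with 1 library left out; the added member was Slc25a2 or, without liver library 3, Slc25a51. Between lung and liver (4) it was 6 with DESeq2, which added Slc25a2 and Slc25a35, and 1 with lung library 2 and liver library 2 both left out, an alternative chosen after seeing the data, and 2 to 5 with 1 library left out. Other mitochondrial genes, also rerun after seeing the data, gave 9 calls with DESeq2 against 3 (1 to 4 with 1 library left out, 1 with both left out) for brain and lung. They gave 20 against 13 (6 to 14) for brain and liver, and 14 against 5 (4 to 6) for lung and liver. The cause was not tested. Shares of all genes called in these settings are not given here. The counts are thus no result about the family or about the other mitochondrial genes. The low values turned sign as follows. Slc25a3 in brain over lung was 0.061 and 0.028 without brain library 1 or 2 (−0.76 to 0.061 with 1 library left out), and in lung over liver 0.065 under scaling by library size. Slc25a23 in brain over liver was 0.032 under that scaling, 0.29 without liver library 2 (−0.49 to 0.29 with 1 library left out) and 0.29 with both left out. Ucp2 in brain over liver was 0.03 without brain library 1 and 0.16 without liver library 2 and 0.16 with both left out (−0.541 to 0.164 with 1 library left out). Slc25a2 in brain over liver was 0 (with 1 library left out up to 9.59) without brain library 3, which held all its brain counts. Scaling by library size moved the median of all genes to 0.18 in brain over liver and 0.22 in lung over liver. With the replicate number as a block, 2, 1 and 4 members were called, Slc25a47 being lost. Deviations of same-numbered libraries from their tissue means correlated at 0.0726 or less. With 3 libraries a tissue, such values cannot show whether libraries of the same number came from the same animals. The summed single-cell level of 13.1 per 10000 UMIs was 13.4 without barcodes carrying 2 or more erythroid or 2 or more choroid plexus marker UMIs, which kept 5177 of 9405 barcodes, 13.5 with mitochondrially encoded UMIs out of the total and 13.5 without the erythroid-like cluster. Depth limits members at or under 3 counts in a library, which is 1.00 CPM in lung library 2 and 0.117 CPM in liver library 2.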

Other observations

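Ucp3, an uncoupling-protein relative known from muscle, was at 176 CPM in brain library 2 and at 0.289 CPM or less in each of the other 8 libraries, and it was not tested. That library also had the highest choroid plexus sum, 1694 CPM, whose part in the value was not tested. Slc25a2 and Slc25a21 likewise had their highest levels in a single brain library, library 3, at 12.2 and 12.8 CPM. Slc25a16, a carrier linked to coenzyme A, was at 73.9 CPM in lung library 2 and at 21.0 and 7.51 CPM in the other lung libraries, and at 0.389 CPM in liver library 2. Slc25a33 was at 7.07, 10.7 and 4.62 CPM in lung and at 3.02, 1.45 and 3.17 CPM in brain. In the single-cell library Slc25a33 had 1 UMI in fenestrated-like barcodes, 0.0107 per 10000 UMIs, against 0.310 in capillary-like barcodes. The unnamed cluster 7, whose leading genes include Ttr, had choroid plexus markers at 124 per 10000 UMIs and a family level of 14.1 per 10000.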
